A study of Homo sapiens with 4 samples.

Results

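Integrins are the cell surface receptors that tie a cell to the matrix around it, and their transcripts were compared here between a pancreatic cancer cell line and a clone of it with less of the histone variant H2A.Z. The 10 genes were set by name and all had transcripts in the authors' comparison of both lines. They are the α subunits ITGA2, ITGA3, ITGA5, ITGA6 and ITGAV and the β subunits ITGB1, ITGB3, ITGB4, ITGB5 and ITGB8. The estimated read counts of all transcripts of a gene were summed in each library. These are 10 of 15221 genes with counts in the series, of which 15101 were tested.

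Both lines were grown in DMEM with fetal bovine serum and harvested at passages 12 to 13. PANC-1, a human line from a ductal adenocarcinoma of the pancreas, was wild type and not transduced. PZT-2 is a PANC-1 derivative in which H2A.Z.1 and both isoforms of H2A.Z.2 were knocked down, made with lentiviral short hairpin RNAs driven by a U6 promoter and selected with puromycin. Each line gave 2 libraries of poly(A)-enriched RNA. PZT-2 is 1 clone compared with an untransduced parent, so the knockdown, the transduction, the drug selection and the choice of a clone cannot be told apart in these libraries, and libraries with the scrambled hairpin were not analysed here.

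An integrin is a pair of 1 α and 1 β subunit, and both are needed for the receptor to reach the surface. The β1 subunit pairs with many α chains: with α2 it binds collagen, with α3 and α6 laminins, and with α5 fibronectin. The αv subunit pairs with β1, β3, β5 and β8 and binds ligands that carry an RGD motif, such as vitronectin, fibronectin and the latent form of TGF-β. The β4 subunit pairs with α6 alone, and α6β4 is the laminin receptor of hemidesmosomes, the junctions that hold epithelial cells to the basement membrane through keratin filaments. In pancreatic cancer these receptors are known for their part in adhesion, invasion and survival signaling.

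The libraries held 12861488 to 15717587 estimated counts after the scaling by sleuth was undone. The first principal component held 61.8% of the variance. H2AFZ, the gene of H2A.Z.1, had 6389 and 6034 normalized counts (counts scaled to a common library size) in PANC-1 and 2213 and 2258 in PZT-2 (log2 fold change -1.47, SE 0.06, edgeR adjusted p = 6.13e-05). H2AFV, the gene of both H2A.Z.2 isoforms, had 3344 and 3452 in PANC-1 and 2590.0 and 2717 in PZT-2 (log2 fold change -0.36, edgeR adjusted p = 0.00563), and with PZT-2 replicate 1 left out the adjusted p rose to 0.0559. The summed level of the pancreatic ductal markers was 7296 to 7444 TPM (counts per length and library total) in PANC-1 and 3999 to 4093 in PZT-2, 7 of 8 markers having a value, and nearly all of it came from the keratins KRT8, KRT18 and KRT19. The fibroblast list (3 of 8 markers with a value) summed to 13 to 15 TPM and 6.23 to 7.38 TPM, and the endothelial list (1 of 5 with a value) to at most 0.236 TPM in any library. The leukocyte list (3 of 7 with a value) summed to 118 to 121 TPM and 125 to 131 TPM, almost all from CD68, while PTPRC and CD3E had no value. Their part in the integrin results was not tested. In RNA from a whole culture, fewer cells that express a gene and less RNA of it per cell cannot be told apart.

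The test was edgeR's quasi-likelihood test over all 15101 genes, with p-values adjusted by Benjamini and Hochberg, and a gene was called at an adjusted p under 0.05. Differences are given as log2 fold changes, positive where PZT-2 was higher than PANC-1. Nothing in the labels says that the 2 libraries of a line came from separate cultures. The authors' heatmap legends call them biological replicates, without describing how they were grown. The p-values measure the spread between these libraries, which may be technical. Of the 10 subunits, 6 were called, 4 of them higher in PZT-2 (ITGA2, ITGA5, ITGB5 and ITGB8) and 2 lower (ITGAV and ITGB4). The background was 28.4% of all genes called, 14.7% higher and 13.7% lower. Without PZT-2 replicate 1 2459 genes were called instead of 4287, and without PZT-2 replicate 2 it was 2020 genes. In 7 of the 10 the normalized counts of the lines did not overlap, against 66.3% of all genes. The median absolute log2 fold change was 0.47 over the 10 subunits and 0.28 over all genes.

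**Figure D1:**
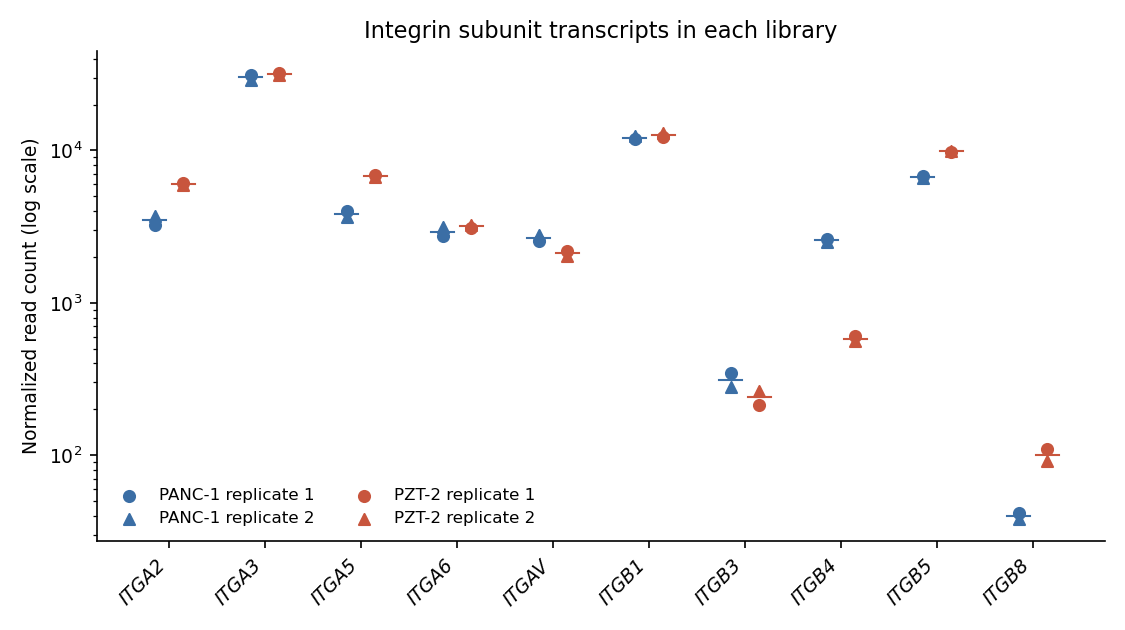
Normalized read count of each integrin subunit (log scale) in the 2 PANC-1 and 2 PZT-2 libraries, with a line at the mean of each cell line. ITGB4 lies between 2520 and 2617 in PANC-1 and between 561 and 602 in PZT-2, while the points of ITGA3, ITGA6 and ITGB1 overlap.

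The subunits covered a wide range of levels. On the TPM scale, which takes the transcript length into account, ITGA3 was highest in PANC-1 with 771 ± 29.4 TPM (SD, n = 2 here and below), followed by ITGB1 with 410 ± 23.5 and ITGB5 with 201 ± 0.778. ITGA5 stood at 116 ± 5.42, ITGA6 at 64.3 ± 7.5, ITGB4 at 56.9 ± 0.339, ITGA2 at 56.3 ± 6.98 and ITGAV at 48.3 ± 4.26 TPM. ITGB3, with 8.19 ± 1.06 TPM, and ITGB8, with 0.577 ± 0.0260 TPM, were the lowest. Of neighbours in this order, ITGB4 and ITGA2 alone had overlapping libraries. In PZT-2 the first 4 and the last 2 were in the same order, ITGA3 at 843 ± 17.7, ITGB1 at 446 ± 15.9, ITGB5 at 306 ± 1.84 and ITGA5 at 214 ± 6.55 TPM, then ITGB3 at 6.54 ± 0.932 and ITGB8 at 1.51 ± 0.195 TPM. Between them ITGA2 stood at 101 ± 2.56, ITGA6 at 72.3 ± 2.57, ITGAV at 39.7 ± 2.04 and ITGB4 at 13.4 ± 0.686 TPM, with no overlap between neighbours. ITGB4 thus lay above ITGAV in PANC-1 and below it in PZT-2.

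The common β1 chain and the laminin-binding α chains differed little. ITGB1 had 11804 and 12426 normalized counts in PANC-1 and 12342 and 13043 in PZT-2. The libraries overlapped, and the log2 fold change was 0.07 (95% interval -0.06 to 0.19, edgeR adjusted p = 0.387). ITGA3, the α chain of the receptor for laminin-332, had 31504 and 29003 counts in PANC-1 and 32209 and 31454 in PZT-2. Here too the libraries overlapped, with a log2 fold change of 0.07 (-0.05 to 0.19, edgeR adjusted p = 0.327). Without PANC-1 replicate 1 the value was 0.13 and the adjusted p 0.0446. ITGA6, which pairs with β1 or β4, had 2733 and 3128 counts in PANC-1 and 3077 and 3262 in PZT-2. Its log2 fold change was 0.11 (-0.08 to 0.30, edgeR adjusted p = 0.338), and without PANC-1 replicate 2 it was 0.21 with an adjusted p of 0.0278. In the main fit the intervals of these 3 genes reached at most 0.30 in log2 units upward and 0.08 downward. They rest on the spread between 2 libraries of each line and do not bound the difference between the lines.

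The collagen-binding and fibronectin-binding α chains were both higher in PZT-2. ITGA2, the collagen-binding chain, had 3220.5 and 3732 normalized counts in PANC-1 and 6105 and 5926 in PZT-2. The lines did not overlap, and PZT-2 was 1.73-fold higher in the fit (log2 fold change 0.79, SE 0.08, edgeR adjusted p = 0.00109). ITGA5, the fibronectin-binding chain, had 3997 and 3634 counts in PANC-1 and 6927 and 6674 in PZT-2. The libraries of the lines were again apart, by 1.78-fold (log2 fold change 0.83, SE 0.06, edgeR adjusted p = 0.000502). ITGA2 and ITGA5 were called in each of the 14 alternative settings, with log2 fold changes of 0.68 to 0.89 and of 0.76 to 0.90. Their partner ITGB1 was called in none of the 14.

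The αv chain and its β partners did not move together. ITGAV had 2535 and 2792 normalized counts in PANC-1 and 2181 and 2040 in PZT-2. Both PZT-2 libraries were below both PANC-1 libraries, with a log2 fold change of -0.34 (SE 0.07, edgeR adjusted p = 0.0155). This call depended on single libraries: leaving out PZT-2 replicate 1 gave -0.39 (adjusted p = 0.0507), and leaving out PZT-2 replicate 2 gave -0.29 (adjusted p = 0.119). With limma-trend on log2(TPM + 1) its adjusted p was 0.0743. ITGB5, the β chain of the vitronectin receptor αvβ5, had 6757 and 6630 counts in PANC-1 and 9793 and 9928 in PZT-2. It was 1.47-fold higher (log2 fold change 0.56, SE 0.05, edgeR adjusted p = 0.000627), and replicates differed by far less than the lines. ITGB8, the β chain of αvβ8, a receptor that activates latent TGF-β, had the fewest counts, 41.6 and 38.0 in PANC-1 and 110 and 92.0 in PZT-2. All of its PZT-2 values exceeded its PANC-1 values, 2.54-fold in the fit (log2 fold change 1.34, 95% interval 0.85 to 1.83, edgeR adjusted p = 0.00479). ITGB5 and ITGB8 were called in each of the 14 alternatives, and the lowest value of ITGB8, 0.67, came from log2(TPM + 1), where the pseudocount shrinks low genes.

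ITGB3, the β chain of αvβ3, had 344 and 278 normalized counts in PANC-1 and 214 and 264 in PZT-2. The PZT-2 libraries lay below the PANC-1 libraries with a narrow gap, and the difference was not called (log2 fold change -0.37, 95% interval -0.74 to -0.01, edgeR adjusted p = 0.117). Without PANC-1 replicate 2 it was -0.53 with an adjusted p of 0.0201.

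ITGB4 had the largest difference of the 10 subunits in absolute log2 units. It had 2617 and 2520.4 normalized counts in PANC-1 and 602 and 561 in PZT-2. Both PZT-2 values lay far below both PANC-1 values, 4.42-fold lower in the fit (log2 fold change -2.14, SE 0.07, 95% interval -2.31 to -1.98, edgeR adjusted p = 5.89e-05). The call held in all 14 alternatives, with log2 fold changes from -2.20 to -2.01. Its only partner ITGA6 overlapped between the lines in normalized counts, as given above. GALK1, the galactokinase gene that overlaps ITGB4, had 610 and 587 counts in PANC-1 and 520 and 558 in PZT-2 (log2 fold change -0.15, edgeR adjusted p = 0.213).

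**Figure D2:**
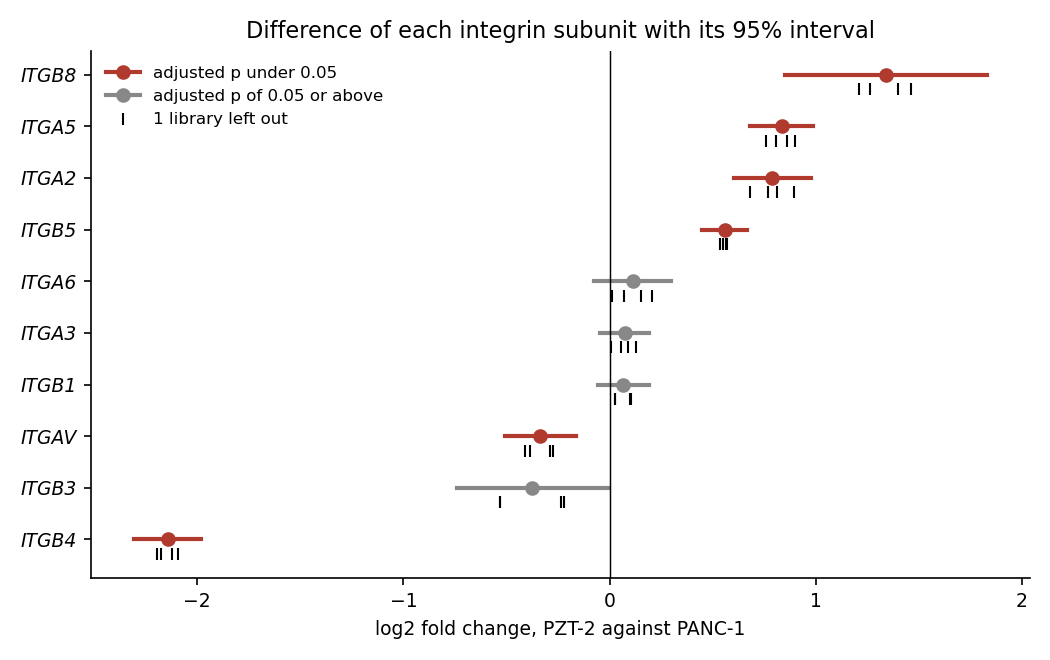
Log2 fold change of each subunit, PZT-2 against PANC-1, with its 95% interval (bars) and the values with 1 of the 4 libraries left out (ticks). ITGB8, ITGA5, ITGA2 and ITGB5 lie above 0 with their intervals, ITGAV and ITGB4 below, and the intervals of ITGA6, ITGA3 and ITGB1 include 0. ITGB3's interval ends just under 0 and its adjusted p is above 0.05.

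The start regions of subunits that were higher are shown for comparison with that of ITGAV, which was lower. RefSeq windows of GRCh38.p14, from 250 bases before to 50 bases after a start site, matched 7 of the 10 genes, in 12 windows. Of the windows of ITGB5 and ITGAV, those nearest to the GENCODE 29 starts of their main transcripts NM_002213 and NM_002210 are given. These GENCODE starts lie 68 and 9 bases downstream of the RefSeq starts. Those of ITGA2 and ITGA5 lie 26 and 194 bases upstream, and that of ITGB8 223 bases downstream. The GENCODE starts of ITGB5 and ITGB8 thus lie outside the windows printed. ITGA3, ITGB3 and ITGB4 had no window, so ITGAV is the one lower subunit shown. Letters are in lower case with each GC box (GGGCGG, or CCGCCC on the other strand) in capitals, the motif bound by SP family factors.
ITGA2, chr5:52989102-52989401, plus strand: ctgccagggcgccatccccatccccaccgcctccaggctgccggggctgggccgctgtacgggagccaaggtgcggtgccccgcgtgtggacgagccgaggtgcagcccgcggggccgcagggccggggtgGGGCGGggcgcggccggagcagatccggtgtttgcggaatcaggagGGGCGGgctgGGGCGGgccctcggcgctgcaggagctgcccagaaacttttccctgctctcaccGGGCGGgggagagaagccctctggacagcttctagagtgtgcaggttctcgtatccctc
ITGA5, chr12:54419217-54419516, minus strand: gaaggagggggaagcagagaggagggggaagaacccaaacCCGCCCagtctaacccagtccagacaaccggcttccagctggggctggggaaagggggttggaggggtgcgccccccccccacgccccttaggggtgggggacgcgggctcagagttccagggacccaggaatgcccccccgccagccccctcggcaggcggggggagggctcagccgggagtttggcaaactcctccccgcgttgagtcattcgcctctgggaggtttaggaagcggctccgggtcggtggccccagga
ITGB5, chr3:124887316-124887615, minus strand: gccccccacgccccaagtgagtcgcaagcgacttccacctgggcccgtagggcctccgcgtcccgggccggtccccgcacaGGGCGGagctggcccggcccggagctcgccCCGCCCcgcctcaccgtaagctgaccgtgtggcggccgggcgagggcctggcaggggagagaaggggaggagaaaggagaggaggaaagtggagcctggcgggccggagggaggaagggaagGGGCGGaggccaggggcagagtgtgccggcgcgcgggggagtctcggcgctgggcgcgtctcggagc
ITGB8, chr7:20330650-20330949, plus strand: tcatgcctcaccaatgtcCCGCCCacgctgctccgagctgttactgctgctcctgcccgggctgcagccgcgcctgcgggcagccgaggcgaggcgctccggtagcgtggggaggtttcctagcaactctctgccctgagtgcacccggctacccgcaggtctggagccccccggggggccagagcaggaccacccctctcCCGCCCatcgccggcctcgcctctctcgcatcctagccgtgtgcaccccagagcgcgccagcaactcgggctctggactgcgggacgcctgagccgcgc
ITGAV, chr2:186589806-186590105, plus strand: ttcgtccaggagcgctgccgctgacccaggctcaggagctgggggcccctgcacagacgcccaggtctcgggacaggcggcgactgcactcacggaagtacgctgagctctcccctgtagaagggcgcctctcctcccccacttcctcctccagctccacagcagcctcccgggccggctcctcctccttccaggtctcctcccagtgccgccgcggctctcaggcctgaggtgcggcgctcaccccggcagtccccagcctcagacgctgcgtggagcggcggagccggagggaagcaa

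All 5 windows were rich in G and C, from 69.3% in ITGA5 to 75.7% in ITGB5, with 70.7% in ITGAV, while the median of all 35116 windows was 58.7%. The GC box was found 4 times in the ITGA2 window, 3 times in that of ITGB5, 2 times in that of ITGB8 and 1 time in that of ITGA5. The ITGAV window held none, and 45% of all windows hold at least 1. The box was also found 3 times each in the window of ITGA6 nearest to the start of NM_000210 (72% G and C) and in that of ITGB1 nearest to the start of NM_002211 (78.3%), genes that were not called. The AP-1 letters TGANTCA, which read the same on both strands, occurred once, in the ITGA5 window, and in 7.71% of all windows. The E-box CAGGTG, searched on both strands, occurred once, in the ITGB5 window, and in 20.6% of all windows. No TATAAA was found on either strand of the 5, against 11.5% of all windows. No match overlapped that of another of these motifs. These are letters in fixed windows, and no binding was measured here.

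The make-up of the integrin transcripts differed accordingly between the lines. The 5 α subunits summed to 1067 and 1044 TPM in PANC-1 and to 1289 and 1252 TPM in PZT-2. Of this sum ITGA3 held 73.0% ± 1.67 in PANC-1 and 66.4% ± 0.0208 in PZT-2, and ITGA5 11% ± 0.346 and 16.9% ± 0.167. The share of ITGA2 was 5.34% ± 0.742 and 7.95% ± 0.0371, and that of ITGAV 4.58% ± 0.473 and 3.13% ± 0.0960. For ITGA6 the shares of the lines overlapped. The 5 β subunits summed to 660.1 and 692 TPM in PANC-1 and to 760.0 and 785 TPM in PZT-2. ITGB4 held 8.42% ± 0.335 of it in PANC-1 and 1.73% ± 0.129 in PZT-2, and ITGB5 29.7% ± 0.889 and 39.6% ± 0.674. ITGB1 remained the main β chain with 60.6% ± 1.43 and 57.7% ± 0.732, and ITGB8 stayed under 1% in every library, at 0.0807% to 0.217%. TPM were not rescaled as the normalized counts were. With limma-trend on log2(TPM + 1) the median log2 fold change over all genes was 0.045, against 0.00092 in edgeR. Shares of 1 sum depend on each other, so these are descriptions and carry no test. The smallest p that an exact permutation test allows with 2 libraries against 2 is 0.333.

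**Figure D3:**
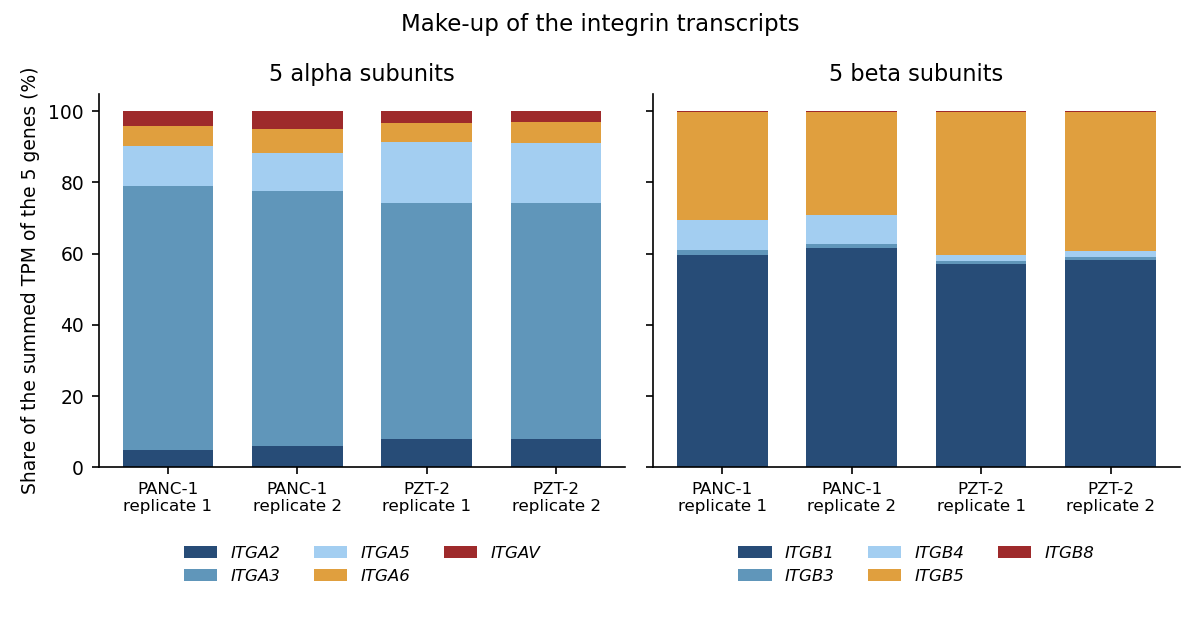
Share of each α subunit (left) and each β subunit (right) in the summed TPM of its 5 genes, in percent, for the 2 PANC-1 and 2 PZT-2 libraries. ITGA5 takes 10.7% to 11.2% of the α sum in PANC-1 and 16.8% to 17% in PZT-2, and ITGB4 8.19% to 8.66% of the β sum in PANC-1 and 1.64% to 1.82% in PZT-2, while ITGB8 is too small to be seen.

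Levels of partner subunits were set against each other on the TPM scale. ITGB4 over its partner ITGA6 gave ratios of 0.968 and 0.814 in PANC-1 and 0.197 and 0.174 in PZT-2. ITGB5 over ITGAV was 4.42 and 3.92 in PANC-1 and 7.39 and 8.02 in PZT-2. ITGB8 over ITGAV was 0.0131 and 0.0109 in PANC-1 and 0.0401 and 0.0359 in PZT-2. In contrast, ITGB3 over ITGAV overlapped, with 0.198 and 0.145 in PANC-1 and 0.143 and 0.188 in PZT-2. Against ITGB1, the ratio of ITGA5 was 0.304 and 0.263 in PANC-1 and 0.505 and 0.459 in PZT-2, and that of ITGA2 0.131 and 0.144 in PANC-1 and 0.237 and 0.217 in PZT-2. The ratios of ITGA3 and ITGA6 to ITGB1 overlapped between the lines. TPM ratios of RNA do not give the number of receptors.

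The estimated counts were also read for single RefSeq transcripts, of which the 10 genes had 21, all tested. This asks whether the sum over a gene hides transcripts that differ. ITGA3, ITGA5, ITGB3 and ITGB8 had 1 transcript each, and 14 of the 21 held at least 10% of their gene in either line. At the transcript level edgeR called 1 of the 21 and 45 of 30403 overall (0.148%), with 5614 at an unadjusted p under 0.05, whereas DESeq2 called 8 of the 21 and 14.3% overall. Counts of transcripts of 1 gene are kallisto's division of shared reads, so they are less certain than the sums.

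The transcript called by edgeR was NM_001321123 of ITGB4, with 1549 and 1644 normalized counts in PANC-1 and 407 and 384 in PZT-2 (log2 fold change -2.01, SE 0.07, edgeR adjusted p = 0.0350). It held 62.1% ± 4.02 of the gene in PANC-1 and 68.2% ± 0.785 in PZT-2. NM_001005731, the second ITGB4 transcript, had 786 and 707 counts in PANC-1 and 144 and 87.7 in PZT-2 (log2 fold change -2.69, edgeR adjusted p = 0.0732, DESeq2 adjusted p = 6.04e-21). In GENCODE 29 both encode 1752 residues, and for both the PZT-2 libraries lay below the PANC-1 libraries without overlap. Of the transcripts of ITGB5, NM_002213 had 5036 and 5363 counts in PANC-1 and 8255 and 8289 in PZT-2 (log2 fold change 0.67, SE 0.05, edgeR adjusted p = 0.0605, DESeq2 adjusted p = 1.25e-34). NM_001354765, with 19.6% ± 3.51 of ITGB5 in PANC-1 and 13.4% ± 0.439 in PZT-2, had 1492 and 1143 counts in PANC-1 and 1339 and 1294 in PZT-2, with a log2 fold change of 0.00043 (SE 0.15, edgeR adjusted p = 0.999). The difference between these 2 transcripts was not tested.

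In ITGAV, NM_002210 held 95.6% ± 1.45 of the gene in PANC-1 and 91.4% ± 1.78 in PZT-2, and had 2447 and 2652 counts in PANC-1 and 2016 and 1833 in PZT-2 (log2 fold change -0.41, edgeR adjusted p = 0.120, DESeq2 adjusted p = 9.12e-05). ITGB1 was carried by NM_002211, with 66.2% ± 1.92 and 66.4% ± 3.54 of the gene, and NM_133376, with 33.4% ± 2.04 and 33.1% ± 3.67, both with the same protein length in GENCODE 29. Neither passed the test, with log2 fold changes of 0.06 (edgeR adjusted p = 0.529) and 0.05 (edgeR adjusted p = 0.934). NM_002203 made up nearly all of ITGA2, with 3219 and 3751 counts in PANC-1 and 6021 and 5857 in PZT-2 (log2 fold change 0.77, edgeR adjusted p = 0.0785, DESeq2 adjusted p = 7.29e-15). The noncoding ITGA2 transcript NR_073106, picked out after its values were seen, was at 0 in both PANC-1 libraries and had 72.3 and 52.2 counts in PZT-2, 1.03% ± 0.217 of the gene there (edgeR adjusted p = 0.0987, DESeq2 adjusted p = 2.06e-05).

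The transcripts of ITGA6 differ in the cytoplasmic end of the α6 protein. NM_000210, which encodes 1073 residues (α6A), includes exon 25 of 26, an exon of 130 bases that NM_001079818, which encodes 1091 residues (α6B), skips. The coding part of this exon, 105 bases, is shown because it is what tells both forms apart.
ITGA6 exon 25, coding part, chr2:172501772-172501876 of GRCh38, plus strand: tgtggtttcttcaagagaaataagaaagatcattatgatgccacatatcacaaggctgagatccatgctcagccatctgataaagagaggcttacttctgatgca

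NM_000210 had 2526 and 2724 normalized counts in PANC-1 and 2396 and 2844 in PZT-2, with overlapping libraries and a log2 fold change of -0.0028 (SE 0.11, edgeR adjusted p = 0.996). NM_001079818 had 206 and 369.6 counts in PANC-1 and 654 and 364 in PZT-2. These also overlapped, and its log2 fold change of 0.82 had an SE of 0.45 (edgeR adjusted p = 0.485, DESeq2 adjusted p = 0.222). The form with exon 25 held 89.6% ± 4.10 of ITGA6 in PANC-1 and 82.7% ± 6.67 in PZT-2.

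Of the 16 other human integrin subunit genes, 8 had counts, and ITGA4, ITGA8, ITGA9, ITGA11, ITGAD, ITGAL, ITGAX and ITGB6 were not analysed here. Among the 8, ITGA1 alone was called, against 28.4% of all genes. Apart from ITGAE, none of the 8 had more than 93.4 normalized counts in any library. ITGA1, a second collagen-binding α chain and partner of β1, had 9.0 and 8.1 normalized counts in PANC-1 and 43.3 and 30.7 in PZT-2. Both PZT-2 values were above both PANC-1 values (log2 fold change 2.10, SE 0.39, edgeR adjusted p = 0.00928), on 8 to 43 reads, and 0.0511 was the adjusted p when PZT-2 replicate 1 was left out. ITGA1 lies next to ITGA2 on chromosome 5 and overlaps PELO, which had 503 and 547 counts in PANC-1 and 553 and 651 in PZT-2 (log2 fold change 0.20, edgeR adjusted p = 0.213). ITGAE, the most abundant of the 8, had 206 and 198 counts in PANC-1 and 188 and 176 in PZT-2 (log2 fold change -0.15, edgeR adjusted p = 0.388). ITGB2, the β chain of leukocyte integrins, had 30.4 and 42.5 counts in PANC-1, 33.2 in PZT-2 replicate 1 and 0 in PZT-2 replicate 2 (edgeR adjusted p = 0.463), and 0.00805 was its adjusted p when PZT-2 replicate 1 was left out. Without PANC-1 replicate 2, ITGA2B and ITGB7 had adjusted p-values of 0.0249 and 0.0142, on at most 19 reads in any library.

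The other genes of the pathway were read in 6 lists with 130 genes, of which 113 were tested. The median log2 fold change of these 113 was -0.0010, against 0.00092 over all genes. In the background of 15101 genes, 28.4% met the threshold, 14.7% upward in PZT-2 and 13.7% downward. Of the 113 pathway genes, 31 were higher and 31 lower in PZT-2. Without PZT-2 replicate 2 the sum of both was 38.

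Among the integrin ligands, 12 of 26 were lower and 7 higher, with a median of -0.16. TNC, a matrix glycoprotein bound by αvβ3, had 249 and 230.4 normalized counts in PANC-1 and 26.2 and 22.7 in PZT-2 (log2 fold change -3.28, edgeR adjusted p = 0.000179). The chains COL1A1, of fibrillar collagen, and COL6A1, of the beaded collagen VI, had log2 fold changes of -1.75 and -1.32 (COL1A1 is also on the fibroblast marker list), and TGFB2, a growth factor of the TGF-β family, -1.54. COL4A1 and COL4A2, the basement membrane collagen chains, named after their values were seen, had 51.8 and 57.8 against 0 and 1.98 counts, and 128 and 154 against 5.03 and 5.93 counts. In the opposite direction LAMB2, LTBP1 and ICAM1 were among the 7 that were higher, with log2 fold changes of 1.14, 1.00 and 0.74, likewise named after their values were seen.

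The 7 hemidesmosome partners, the proteins that meet α6β4 at these junctions, held 2 that were higher and 2 that were lower, with a median of -0.07. DST, a plakin of these junctions, had 2330 and 2425 counts in PANC-1 and 1810 and 1380.4 in PZT-2 (log2 fold change -0.58, edgeR adjusted p = 0.0152). In its most abundant transcript alone the value was -0.19 (edgeR adjusted p = 0.695). DST was also not called with limma-trend on log2(TPM + 1) or log2(TPM + 0.1) (adjusted p = 0.0610 and 0.0631). LAMB3, a chain of the α6β4 ligand laminin-332, had 51.8 and 48.8 in PANC-1 and 76.5 and 88.0 in PZT-2 (log2 fold change 0.71, edgeR adjusted p = 0.0388). The call of LAMB3 was lost with any 1 library left out (adjusted p = 0.0575 and 0.0944 without PANC-1 replicates 1 and 2, 0.0905 and 0.206 without those of PZT-2) and in DESeq2 (adjusted p = 0.221). LAMA3, another chain of it, had 68.6 and 70.5 counts in PANC-1, 3.02 in PZT-2 replicate 1 and 0 in PZT-2 replicate 2 (edgeR adjusted p = 0.00186).

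Of the proteins that switch integrins on or off at the membrane, 3 of 16 were higher and 4 lower, with a median of -0.10. TLN2, a talin that binds β tails, had 350 and 392 counts in PANC-1 and 153 and 143 in PZT-2 (log2 fold change -1.33, edgeR adjusted p = 0.000741). FERMT2, a kindlin and coactivator, had 327 and 383 in PANC-1 and 565 and 554 in PZT-2 (0.65, edgeR adjusted p = 0.00496). KANK2, which binds talin, had a log2 fold change of -0.34 (edgeR adjusted p = 0.00761, and 0.0804 without PZT-2 replicate 2), and ITGB1BP1, an inhibitor that competes for the β1 tail, of 0.23 (edgeR adjusted p = 0.0328, and 0.109 or 0.216 with the first or second PZT-2 library left out).

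Adaptors and kinases of adhesion sites were called in both directions, 8 of 32 higher and 7 lower, with a median of 0.08. The kinase SRC had 464 and 373 counts in PANC-1 and 789 and 762 in PZT-2 (log2 fold change 0.90, edgeR adjusted p = 0.00237), and PALLD, an actin crosslinker, a log2 fold change of 0.87. The tensins TNS3 and TNS2, which bind β tails, had log2 fold changes of -0.83 and -0.48, the latter at 0.0655 in adjusted p when PZT-2 replicate 2 was left out. Among tetraspanins and other lateral partners 6 of 15 were higher and 3 lower, with a median of -0.10. PLAUR, the urokinase receptor, had 101 and 96.7 counts in PANC-1 and 233 and 246 in PZT-2 (log2 fold change 1.27, edgeR adjusted p = 0.00106), the tetraspanin CD9 a log2 fold change of 0.75, the proteoglycan SDC4 of 0.58 and CAV1, the main protein of caveolae, of -0.58. Of the genes of integrin trafficking 5 of 17 were higher and 3 lower, with a median of 0.16. RAB5A, a GTPase of early endosomes, had 234 and 280 counts in PANC-1 and 541 and 520 in PZT-2 (log2 fold change 1.04, edgeR adjusted p = 0.00137), RAB11A, a GTPase of recycling endosomes, a log2 fold change of 0.52 and NUMB, an endocytic adaptor, of 0.42. With the most abundant transcript of each gene alone, KANK2, ITGB1BP1, PALLD, TNS2 and NUMB were not called, at adjusted p-values of 0.307, 0.110, 0.141, 0.240 and 0.113, and ITGB1BP1 was not called in DESeq2 (adjusted p = 0.0780). VIM, the intermediate filament vimentin, had 106089 and 104504 counts in PANC-1 and 76397 and 74707 in PZT-2 (log2 fold change -0.48).

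**Figure D4:**
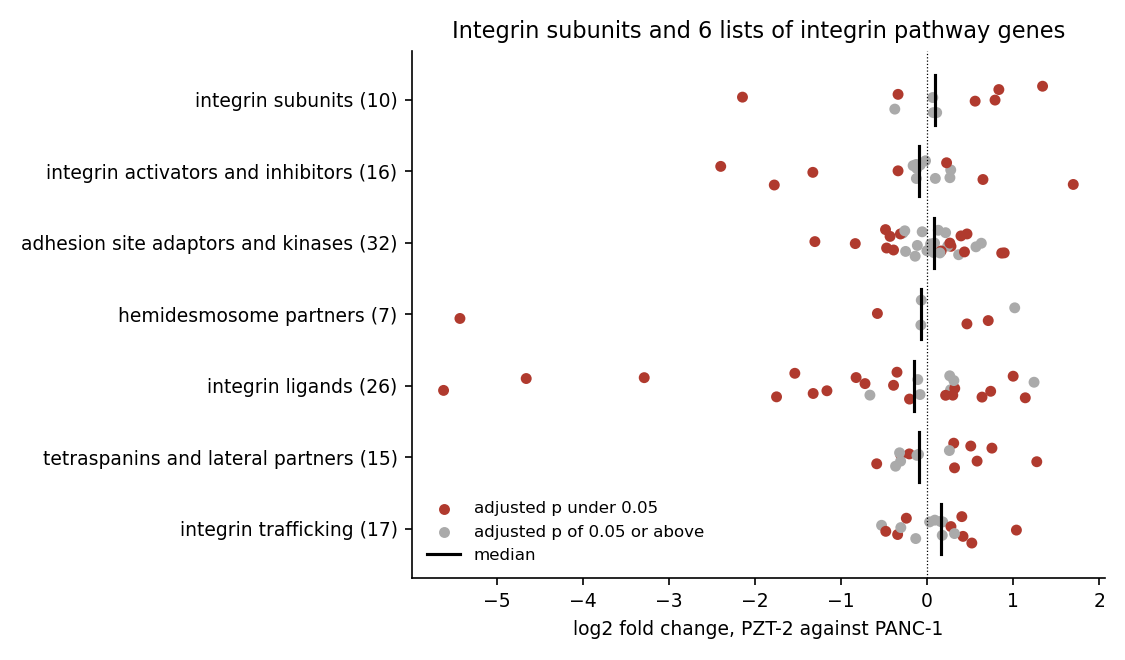
Log2 fold change, PZT-2 against PANC-1, of the 10 integrin subunits and of the tested genes of 6 pathway lists (number of genes in brackets), with called genes in red and the median of each list as a line. Medians lie between -0.16 and 0.16, and called genes stand on both sides of 0 in every list.

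The subunits lie on 7 chromosomes, and the tested genes around them were read for comparison. On chromosome 3, which carries ITGB5, the median log2 fold change of the 837 tested genes was 0.43, against 0.00092 over all genes, and that of the 10 nearest tested genes, 5 on either side of ITGB5, was 0.18. ITGB5 itself was at 0.56, and the part of its chromosome in this value was not tested. The 10 neighbours of ITGAV on chromosome 2 had a median of -0.33, with 4 lower and none higher, beside -0.34 for ITGAV and a median of 0.12 over that chromosome. The neighbours of ITGB4 on chromosome 17 had a median of -0.10, with 4 called lower, against -2.14 for ITGB4. For ITGA2 on chromosome 5, ITGA5 on chromosome 12 and ITGB8 on chromosome 7, which were higher, the medians of the neighbours were -0.14, -0.15 and -0.37.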

How the data were processed

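RNA-seq was done on 2 PANC-1 and 2 PZT-2 libraries. Per the labels and methods, the authors made TruSeq stranded mRNA libraries, trimmed the paired reads with Trim Galore 0.4.1 and estimated RefSeq transcripts with kallisto 0.43.0, and the authors deposited these estimated counts as exported from sleuth 0.29.0. hg19 is named without a role, and the strand setting of kallisto is not given in the sources used here. The deposited counts of each library carried 1 scaling factor (0.935 to 1.16), which was undone: 48.5% to 49.7% of the values from 0.5 to 30 in genes with a single transcript then were whole within 0.01, against 0.635% to 2.71% as deposited. Deposited columns for transcript length and effective length gave the TPM, recomputed from the unscaled counts, since 1 library's deposited TPM exceeded the sum that TPM has. The authors' own test results (fold changes and p-values) were not used, apart from gene symbols. 103 transcripts without a gene name (0.0466% of counts) stayed out.

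Counts were rounded, summed per gene and tested with edgeR 4.0.16 (TMM, quasi-likelihood, R 4.3.3), keeping genes that reached 5 counts in 2 or more libraries. TMM factors were 0.980 to 1.01. Scripts were tested on simulated data. DESeq2 1.42.0, limma 3.58.1, other filters and scalings, a replicate block and leaving out each library were the alternatives. The edgeR version 4 dispersion estimate was added after seeing the data. Members and gene lists were chosen with earlier results of these data known. Every member was named, with each other integrin subunit that passed, transcripts with at least 10% of their gene in either line, and up to 4 genes a list: those with the largest absolute log2 fold change that passed, had a mean of at least 100 normalized counts and did not overlap between the lines. A gene or marker of these lists that is not named is not reported here.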

Additional observations from a re-analysis of the deposited data

How the results depend on the processing

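ITGA2, ITGA5, ITGB4, ITGB5 and ITGB8 were called in all 14 alternatives and ITGB1 in none, and no subunit changed direction. ITGAV was not called with limma-trend on log2(TPM + 1) or log2(TPM + 0.1) (adjusted p = 0.0743 and 0.0770), or without either PZT-2 library. Between 5 and 8 of the 10 subunits were called with 1 library left out, and 5 to 6 otherwise. Genes called ranged from 2020 to 4627 with 1 library left out. With limma-trend on log2(TPM + 1) 2370 were higher and 1446 lower, against 2223 and 2064 in edgeR. The median log2 fold change over all genes was 0.045 in the former and 0.00092 in the latter. Of the other integrin subunits 0 of 4 tested were called with at least 10 counts in all 4 libraries (1 at an unadjusted p under 0.05 in edgeR), and 1 to 3 with 1 library left out. Pathway genes called ranged from 38 to 68 with 1 library left out. Over all transcripts DESeq2 called 14.3%, and the shares in the alternative edgeR fits are not reported here. Of the 21 transcripts of the subunits, 8 were called by DESeq2, 5 with at least 10 counts in all libraries and 4 with the version 4 dispersion estimate. In edgeR 0 were called with the replicate block, with 8 at an unadjusted p under 0.05, and 0 in each fit with 1 library left out, with 6 to 9 at an unadjusted p under 0.05. The cause of these shifts was not tested.

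Replicate numbers come from the sample titles alone. With the number as a replicate block, 3742 genes, 6 subunits, 1 other integrin subunit and 55 pathway genes were called. Deviations of same-numbered libraries correlated at -0.0203, and with 2 pairs this does not show that the numbers pair the samples. Low counts limit ITGB8 and ITGA1, whose intervals are wide.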
